A study of Sus scrofa with 26 samples.

Results

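The comparison described here is between F1 pigs and Creole pigs that were kept under heat stress (HS), in the subcutaneous adipose tissue (SCAT). Its members are the arrays that the titles label as F1 or Creole at 30 °C, that is 5 F1 and 5 Creole arrays, 10 of the 26 arrays of the series. The remaining arrays were 5 Large White (LW) arrays under HS and, at thermoneutrality (TN, 24 °C), 4 F1, 3 Creole and 4 LW arrays, with 1 animal on each. Replicates are numbered in the order of deposit, which only names the arrays. The F1 pigs are the cross of the Creole and LW breeds. All pigs of the study were castrated males, per its methods, and no other allele or agent separates the groups. The sample titles state a heat of 30 °C, and the design text of the series states 32 °C over 5 days. The methods state 3 blocks of 4 littermates per breed. Pens of 3 pigs of 1 breed, each from another block, were assigned to either temperature. By this layout the 5 arrays of a group under heat come from 3 litters and include littermates. They also share litters with the TN group of their breed. The labels do not show which arrays are littermates. The p-values treat the arrays as independent, and the part of sibship was not tested.

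The Creole is a tropical breed of the Caribbean, fat and slow-growing, and the LW is a lean breed selected in temperate conditions for growth. In a first cross each animal carries 1 Creole and 1 LW allele at most autosomal genes. The subcutaneous fat stores triglycerides, releases hormones such as leptin, and insulates the body. A difference between F1 and Creole pigs under heat can stand at both temperatures or under heat alone, and the TN arrays of the same 2 genotypes served to describe which. A further point is that a probe of an array binds a stretch of a transcript, so that a sequence difference between breeds within this stretch can move its signal. That part was not tested.

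Under heat, 32 of the 44703 probes tested differed between F1 and Creole at an adjusted p below 0.05 (limma, Benjamini-Hochberg), which was 0.0716% of the probes. The signal was higher in F1 for 17 of them (0.038% of the probes tested) and lower in F1 for 15 (0.0336%). Among the probes with a gene symbol, those higher in F1 were led by the swine leukocyte antigen (SLA) genes, namely 5 probes of SLA-3 and 1 of SLA-DQA1, and held HIGD1B, CCDC17 and C1D. Those lower in F1 were of C1GALT1, GSTA4, TRO, SLC35F5, PRPS2, HACL1, POLR1D, AKTIP and NOL11. The other 13 probes carry no gene symbol here, and they include the 3 largest differences with F1 higher. The median size of the 32 differences was 0.95 on the log2 scale, 14 exceeded 1 and 6 exceeded 2. On 25 of these probes the 5 F1 arrays lay all above or all below the 5 Creole arrays, which was the case for 1.5% of all probes tested.

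The list of 32 is the upper end of a wide set of smaller differences. An unadjusted p below 0.05 was found for 3828 probes, or 8.56% of those tested, of which 1795 were higher and 2033 lower in F1. The last probe inside the threshold had an adjusted p of 0.0497 and the first outside it 0.0513, and 9 of the 32 lay above 0.049. The median difference over all probes was -0.00075 on the log2 scale. With only the 10 arrays of both groups in the model, 9 probes passed, 4 of which were among the 32.

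The tissue and the arrays were checked first. The adipocyte genes FABP4, which carries fatty acids in the cytosol, and PLIN1, which coats the lipid droplet, had mean signals of 18.28 and 15.70 in F1 and of 18.40 and 15.91 in Creole on the log2 scale. Between 70.2% and 74.4% of the spots were well above background on the 10 arrays. Correlations across probes ranged from 0.985 to 0.993 within F1, from 0.974 to 0.992 within Creole and from 0.977 to 0.991 between both. Genes of other tissues differed among the arrays of a group. The skeletal muscle gene CKM, creatine kinase of muscle, reached 16.41 and 15.06 on Creole replicates 3 and 4, against 11.90 to 14.11 on the other 8 arrays. The keratinocyte gene KRT5, a keratin of the basal epidermis, was at 13.61 or above on F1 replicates 3 and 5 and at 12.24 on Creole replicate 2, against 4.94 to 9.81 on the other 7. Without the 3 arrays with the most keratinocyte signal 20 probes passed, 8 of them among the 32. Without the 2 Creole arrays with the most muscle signal 168 probes passed, 26 of them among the 32. Both settings were chosen after the values were seen.

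The SLA genes are the major histocompatibility complex of the pig. The class I molecules, such as SLA-3, show peptides from within the cell to cytotoxic T cells together with beta-2 microglobulin, and the class II molecules, such as the pair of SLA-DQA1 and SLA-DQB1, show peptides taken up from outside to helper T cells. These genes differ widely between haplotypes, and the class I genes resemble each other, so that probes named SLA-3 may also bind transcripts of their paralogs, and their gene is uncertain. The probes are shown here because the size of the difference varied among the probes of a gene, and the reason was not tested. The sequences are those of the deposited files and are written 5′ to 3′. Both pairs of SLA-3 probes overlap, and for them only a run common to the pair is shown. In the SLA-DQA1 probes, the capitals mark the run of 22 bases that both share.
SLA-3, A_72_P517623, whole probe: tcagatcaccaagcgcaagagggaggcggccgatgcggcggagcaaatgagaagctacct
SLA-3, run shared by A_72_P515992 and A_72_P609764: GGTTTAGAAATAGGGAAAGGGGCTTACCC
SLA-3, 30 bases of the run shared by A_72_P625308 and A_72_P682906: TCCTTATGCTAAGTTCATTGCCCTGACTGG
SLA-DQA1, A_72_P763148: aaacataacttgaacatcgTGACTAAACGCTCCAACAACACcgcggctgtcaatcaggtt
SLA-DQA1, A_72_P743257: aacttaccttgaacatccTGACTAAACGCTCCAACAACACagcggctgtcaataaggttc

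The SLA-3 probe A_72_P515992 read 16.09, 16.80, 16.81, 16.71 and 16.70 on the F1 arrays, and 14.31, 13.88, 14.16, 16.33 and 13.62 on the Creole arrays. Thus 4 of the 5 Creole pigs stood more than 1 log2 unit below every F1 pig, and Creole replicate 4 stood among the F1 pigs. The mean was 16.62 ± 0.30 in F1 and 14.46 ± 1.08 in Creole (SD, n = 5 each), a difference of 2.16 ± 0.40 (SE), or 4.48-fold, with an adjusted p of 0.0309 by limma. The probe A_72_P517623, at another stretch of the transcript, read from 12.37 to 13.26 in F1, and 11.23, 10.75, 10.74, 12.08 and 9.79 in Creole. All 5 F1 arrays were above all Creole arrays, and Creole replicate 4 was again the highest of its group. The difference was 2.001 ± 0.27, with an adjusted p of 0.00173. This call held without any single array, whereas that of A_72_P515992 was lost in 8 of the 26 fits without 1 array, where its adjusted p reached 0.13.

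The other SLA-3 probes past the threshold gave smaller differences in the same direction. They were 1.53 ± 0.26 for A_72_P609764, 1.43 ± 0.19 for A_72_P625308 and 1.19 ± 0.22 for A_72_P682906, with adjusted p-values of 0.0166, 0.00173 and 0.0367 (limma). In the 26 fits without 1 array the call was lost in 4 for A_72_P609764, 0 for A_72_P625308 and 9 for A_72_P682906. The 5 probes thus stand for 3 stretches of sequence. The pair A_72_P625308 and A_72_P682906 share a run of 42 bases. The probes A_72_P515992 and A_72_P609764 align over 57 bases and differ at 2 of them, C30A and A60G, counted from the first base of A_72_P515992. The sixth SLA-3 probe, A_72_P649741, had a difference of 0.52 ± 0.18, which did not pass (adjusted p = 0.364).

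At TN no SLA-3 probe passed the threshold. For A_72_P515992 the means at TN were 15.63 ± 1.00 in F1 (n = 4) and 16.09 ± 0.12 in Creole (n = 3), a difference of -0.46 in the opposite direction with an unadjusted p of 0.344. For A_72_P517623 they were 12.81 ± 0.31 and 12.53 ± 0.18. The largest SLA-3 difference at TN in the direction seen under heat was 0.45, on A_72_P625308 (unadjusted p = 0.0695). All 3 Creole arrays at TN were above 4 of the 5 Creole arrays under heat on A_72_P515992, and above all 5 on A_72_P517623. The difference between the temperatures, tested as an interaction, was 2.62 for A_72_P515992 and 1.72 for A_72_P517623, with unadjusted p-values of 0.000305 and 0.000487 and an adjusted p of 0.896 for both, so it did not pass over all probes. Over all probes tested, and not SLA-3 alone, the count past this interaction test was 0 with all arrays. In the fits without 1 array it was 4 at most, reached without Creole replicate 4 under heat. The TN and HS pigs are different animals, and whether the Creole pigs of both groups carried the same SLA haplotypes was not tested.

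**Figure D1:**
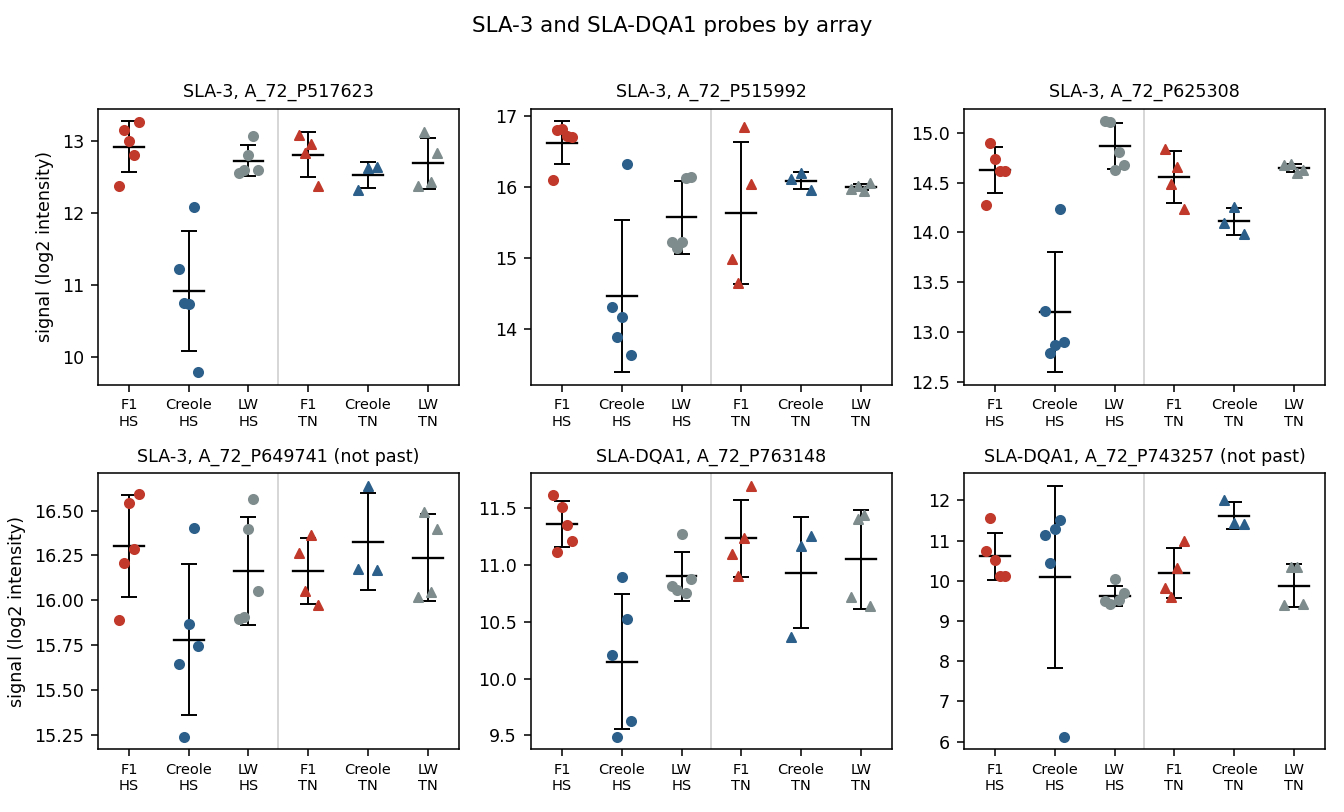
Signal (log2 intensity) of 4 SLA-3 and 2 SLA-DQA1 probes on each of the 26 arrays, by breed (F1, Creole, LW) and temperature (HS circles, TN triangles), where lines and bars are the mean ± SD of a group. On the 3 SLA-3 probes past the threshold, 4 Creole HS arrays lie below every other array, with Creole replicate 4 nearer to the F1 arrays, and on A_72_P743257 Creole replicate 5 reads 6.12.

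SLA-DQA1, the alpha chain of the DQ class II molecule, passed the threshold on 1 of its 9 tested probes, with a higher signal in F1. A_72_P763148 read 11.61, 11.12, 11.51, 11.35 and 11.22 in F1, and 10.21, 9.49, 10.90, 10.53 and 9.63 in Creole. The groups did not overlap, and the difference was 1.21 ± 0.24, with an adjusted p of 0.0497 by limma. At TN the difference was 0.30 (unadjusted p = 0.3). The probe A_72_P743257 lies at the same place, and over 59 aligned bases it differs from A_72_P763148 at A5T, A8C, G19C, C42A and C55A, counted from the first base of A_72_P763148. It gave another order, with 10.11 to 11.56 in F1 and 11.15, 10.45, 11.29, 11.51 and 6.12 in Creole. Here 4 Creole arrays stood within the F1 range and Creole replicate 5 stood far below it, and the difference of 0.51 ± 0.65 did not pass. At TN the difference on A_72_P743257 was -1.44, in the opposite direction (unadjusted p = 0.0777, limma). The other 7 probes of SLA-DQA1 gave differences between -0.28 and 0.46 under heat, and 6 of these 7 were lower in F1.

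In the rest of the antigen presentation list no probe passed the threshold, and the class I genes did not share a direction. The 4 probes of SLA-8, a class I gene, were all higher in F1, with a median difference of 0.68 and an unadjusted p below 0.05 for each. The 2 probes of SLA-5, also class I, were higher in F1 by 0.54 ± 0.16 and 2.31 ± 1.01. The second of them, A_72_P414498, read from 10.82 to 12.53 in F1 and from 7.64 to 11.07 in Creole. At TN the 2 probes differed by -0.15 and -2.25, in the opposite direction (unadjusted p = 0.455 and 0.0773, limma). Under heat SLA-6 was lower in F1 on both of its probes, by 0.57 and 0.19, with an unadjusted p of 0.0286 for the first. The 6 probes of SLA-1 differed by 0.00021 to 0.63, with a median of 0.13, and the probe of SLA-7 by 0.07. Among class II genes, SLA-DQB1 was higher in F1 on 3 of its 4 probes, with an unadjusted p below 0.05 on 2 (limma). Its median was 0.41 under heat and -0.30 at TN. Under heat SLA-DRB1 was higher in F1 on all 4 of its probes, by 0.29 to 0.48. The heat medians of SLA-DRA, SLA-DMA, SLA-DMB, SLA-DOA and SLA-DOB lay between -0.03 and 0.12. The 3 probes of PSMB8, a catalytic subunit of the immunoproteasome, were higher in F1 by 0.59 to 0.67, with an SE of 0.37 for the probe with the highest level. B2M, the beta-2 microglobulin that all class I molecules share, differed by -0.09 to 0.01 on its 10 probes. TAP1, a subunit of the peptide transporter of the endoplasmic reticulum, differed by 0.12 to 0.18 on its 3 probes. For TAP2, the other subunit, the probe with the highest level was lower in F1 by 0.54, whereas the other 4 differed by 0.02 to 0.20. With 1 probe for each gene, 15 of the 23 measured genes of the list were higher in F1, with a median of 0.07, beside a median of -0.0020 over the 10481 genes tested.

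On an unnamed probe the same arrays stood out as on A_72_P515992, that is F1 replicate 1 low and Creole replicate 4 high. It read 11.73, 12.84, 12.90, 12.78 and 13.12 in F1, and 9.86, 9.49, 9.04, 12.29 and 10.19 in Creole, so that Creole replicate 4 stood within the F1 range. The difference was 2.50 ± 0.38 (SE) under heat (adjusted p = 0.00703, limma) and 0.23 at TN. Its gene is not given in the sources used here.

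Another set of genes differed under heat and, by values of the same direction and like size, at TN. GSTA4 encodes a glutathione S-transferase that conjugates 4-hydroxynonenal, a product of lipid peroxidation. It was read by 2 probes of that name, and another probe without a gene symbol covers the same place. They are shown with the run of 31 bases that all 3 share in capitals, because they are 3 readings of 1 stretch and not of 3 genes.
GSTA4, A_72_P210752: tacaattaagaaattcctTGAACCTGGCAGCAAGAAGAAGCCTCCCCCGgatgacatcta
GSTA4, A_72_P605968: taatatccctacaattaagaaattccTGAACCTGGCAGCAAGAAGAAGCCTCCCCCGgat
Unnamed probe: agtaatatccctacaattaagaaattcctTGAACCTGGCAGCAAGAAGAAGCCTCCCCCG

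On A_72_P210752 the F1 arrays read 9.46, 9.54, 9.50, 9.35 and 9.23, and the Creole arrays 10.38, 10.57, 9.81, 9.78 and 10.34. All F1 arrays were below all Creole arrays. The means were 9.42 ± 0.13 and 10.18 ± 0.36, and the difference was -0.76 ± 0.13, with an adjusted p of 0.0141 by limma. The differences on A_72_P605968 and on the unnamed probe were -0.78 ± 0.13 and -0.99 ± 0.14, with adjusted p-values of 0.0112 and 0.00247. At TN, A_72_P210752 read 9.32 ± 0.16 in F1 and 9.95 ± 0.06 in Creole, a difference of -0.63 (unadjusted p = 0.000391, adjusted p = 0.312). The LW arrays under heat were at 9.51 ± 0.18.

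C1GALT1 encodes the galactosyltransferase that builds the core 1 structure of mucin-type O-glycans. Its single probe read 5.36, 5.29, 8.74, 5.61 and 5.10 in F1, and 8.32, 8.60, 8.50, 9.72 and 8.54 in Creole. F1 replicate 3 stood within the Creole range, and the other 4 F1 arrays were more than 2 log2 units lower. The probe was well above background on all 5 Creole arrays and on 1 of the 5 F1 arrays, so the fitted difference of -2.71 ± 0.44 (adjusted p = 0.0113, limma) rests on F1 signals near the background. Over all arrays the probe was well above background on 9, of which 8 were Creole, so it entered the tests through the breed in which it is bright, and its calls are given as a description. At TN it was well above background on all 3 Creole arrays and on none of the 4 F1 arrays, where Creole was at least 8.92-fold brighter (adjusted p = 0.049). This bound sets the mean of the Creole arrays against the F1 signal, or against the lowest signal well above background of the same array where that was higher. No LW array was well above background, and Creole was at least 10.7-fold brighter than LW under heat.

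CCDC17, a coiled-coil protein of little known function, was higher in F1 on its single probe, which is given because it lies at the dim end of the scale.
CCDC17, O9385: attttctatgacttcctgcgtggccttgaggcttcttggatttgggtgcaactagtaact

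Its signals were 6.05, 6.50, 7.24, 6.79 and 6.63 in F1 and from 5.53 to 6.01 in Creole. The groups did not overlap, although F1 replicate 1, at 6.05, was close to the highest Creole array, at 6.01. The difference was 0.93 ± 0.15 under heat (adjusted p = 0.0125, limma) and 0.66 at TN (unadjusted p = 0.0016). A second probe, A_72_P097651, has no symbol here but its description in the files names the same protein of the dog. It read 8.22, 8.86, 10.29, 9.36 and 9.39 in F1, and 7.21, 6.49, 6.07, 5.66 and 6.06 in Creole. The difference was 2.92 ± 0.29 under heat, or 7.59-fold, with the smallest adjusted p of the comparison (3.12e-05), and 2.82 at TN, where it also passed (adjusted p = 0.000951). On both probes F1 replicate 1 was the lowest F1 array and F1 replicate 3 the highest.

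C1D, a nuclear protein that assists the RNA exosome, was higher in F1 on A_72_P220612. The F1 arrays were at 9.55, 9.31, 9.19, 9.45 and 9.46 and the Creole arrays at 8.87, 8.74, 8.78, 8.73 and 8.53. The spread within each group was small against the gap, with a difference of 0.66 ± 0.11 and an adjusted p of 0.016 by limma. At TN the difference was 0.86 (adjusted p = 0.0244), and the LW arrays were at 9.84 ± 0.15 under heat. A second C1D probe differed by 0.03.

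PRPS2, a phosphoribosyl pyrophosphate synthetase at the entry of nucleotide synthesis, was lower in F1 by 0.62 on A_72_P317898. The means were 8.31 ± 0.17 and 8.92 ± 0.18, with no overlap of the arrays and an adjusted p of 0.0167 by limma. At TN the difference was -0.68 (unadjusted p = 1.91e-05). The 2 other PRPS2 probes went the opposite way, with differences of 0.26 and 0.04 under heat and of 0.38 and 0.30 at TN, so the gene has no single direction here.

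TRO, the trophinin protein of cell adhesion, was lower in F1 on both of its probes. The probe past the threshold read 5.63, 5.76, 5.60, 5.78 and 6.32 in F1 and from 6.26 to 6.91 in Creole, which made F1 replicate 5 overlap the Creole range. Its difference was -0.79 ± 0.14 under heat (adjusted p = 0.0167, limma) and -0.79 at TN (unadjusted p = 7.04e-05). The second probe gave -0.60 and had an adjusted p of 0.0664. Both were dim, and at TN the first was well above background on 1 of the 4 F1 arrays.

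**Figure D2:**
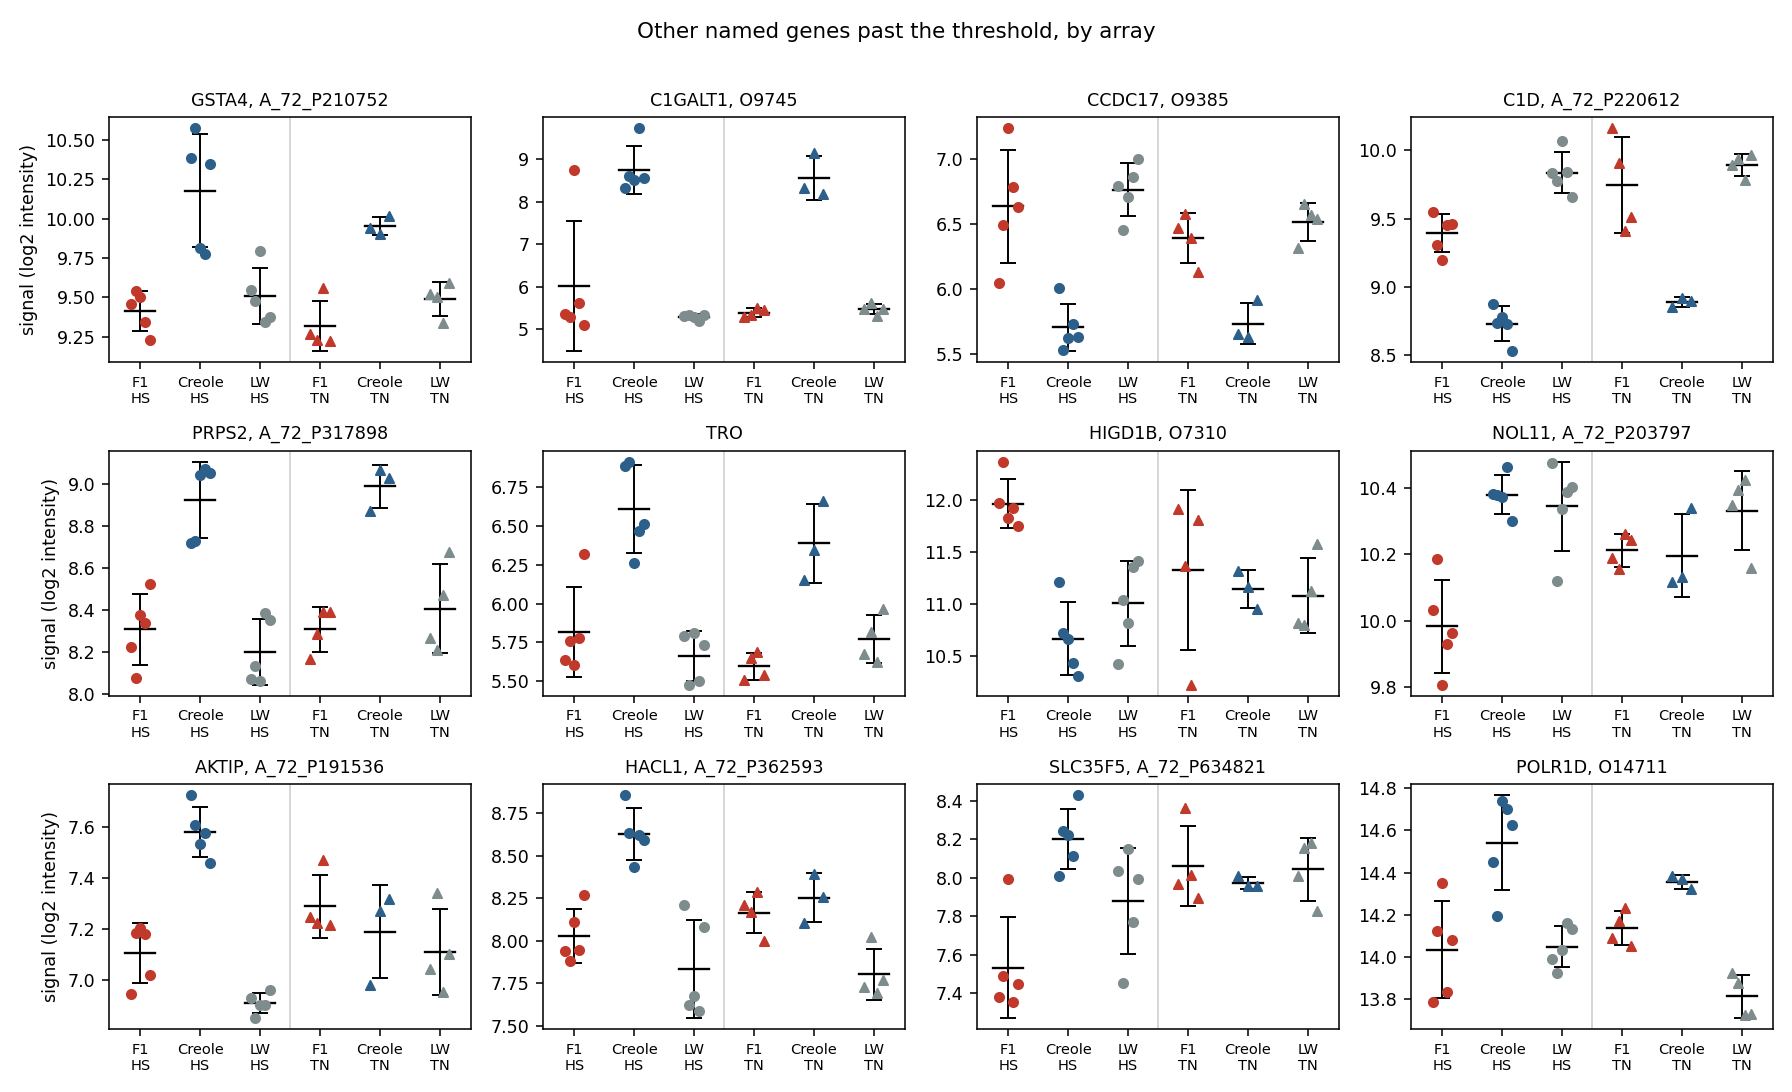
Signal (log2 intensity) of 12 other named genes past the threshold on each of the 26 arrays, by breed (F1, Creole, LW) and temperature (HS circles, TN triangles), where lines and bars are the mean ± SD of a group. GSTA4, C1GALT1, CCDC17, C1D, PRPS2 and TRO show the F1 arrays apart from the Creole arrays at both temperatures, except F1 replicate 3 of C1GALT1 at 8.74 and F1 replicate 5 of TRO at 6.32, which lie within the Creole range under heat, whereas the TN arrays of HIGD1B, NOL11, AKTIP, HACL1 and SLC35F5 overlap, and those of POLR1D do not, with F1 at or below 14.23 and Creole at or above 14.32.

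A further set of named genes differed under heat, while the differences at TN on their probes past the threshold lay between -0.22 and 0.18. HIGD1B, a mitochondrial inner membrane protein of the hypoxia-inducible domain family, is known from vascular pericytes. It read 11.96, 12.36, 11.82, 11.92 and 11.74 in F1, and 11.22, 10.72, 10.67, 10.43 and 10.31 in Creole. All F1 arrays were above all Creole arrays, and the difference was 1.29 ± 0.25, or 2.45-fold, with an adjusted p of 0.0497 by limma. Its second probe gave 1.21 ± 0.24 and missed the threshold (adjusted p = 0.0513). At TN the means were 11.33 ± 0.77 in F1 and 11.15 ± 0.18 in Creole. In the list of smooth muscle and pericyte markers no gene passed. Of its 10 measured genes 9 were higher in F1 under heat, with a median of 0.21, and the mean score per array, relative to the mean of all arrays, ranged from 0.06 to 0.31 in F1 and from -0.35 to 0.18 in Creole, so the groups overlapped. The part of these cells in the HIGD1B difference was not tested. In a bulk tissue more cells of a type and more RNA per cell cannot be told apart.

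NOL11, a nucleolar protein of the processome that matures the 18S ribosomal RNA, read 10.03, 10.19, 9.81, 9.93 and 9.96 in F1 and from 10.30 to 10.46 in Creole. The F1 arrays were all below the Creole arrays, with a difference of -0.40 ± 0.08 and an adjusted p of 0.0497 by limma. At TN the difference was 0.02, and the LW arrays under heat were at 10.34 ± 0.13, on the Creole level. A second NOL11 probe differed by 0.01.

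AKTIP, a partner of the kinase AKT in vesicle traffic, was at 7.11 ± 0.12 in F1 and 7.58 ± 0.10 in Creole. The groups did not overlap, and the difference was -0.47 ± 0.08 (adjusted p = 0.0209, limma). At TN the means were 7.29 ± 0.12 and 7.19 ± 0.18. The interaction was -0.57, with an unadjusted p of 0.000216 and an adjusted p of 0.795.

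HACL1 is a lyase of the peroxisome that shortens phytanic acid and other 2-hydroxy fatty acids by 1 carbon. It was at 8.03 ± 0.16 in F1 and 8.63 ± 0.15 in Creole, again without overlap. The difference was -0.60 ± 0.12 under heat (adjusted p = 0.0497, limma) and -0.09 at TN. SLC35F5, a transporter of the nucleotide sugar family, was lower in F1 by 0.67 on A_72_P634821 (adjusted p = 0.0497). Its other 4 probes were lower in F1 as well, by 0.38 to 0.52, and did not pass. At TN the 5 probes gave differences of 0.03 to 0.31 in the opposite direction. F1 replicate 3, at 7.99, stood apart from the other F1 arrays, which were at 7.49 or below.

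POLR1D, a subunit shared by RNA polymerases I and III, read 13.79, 14.12, 14.35, 13.84 and 14.08 in F1 and from 14.19 to 14.74 in Creole. The groups overlapped by 1 array on each side, and the difference was -0.51 ± 0.10 (adjusted p = 0.0497, limma), beside -0.22 at TN (unadjusted p = 0.0792). At TN the 4 F1 arrays, at 14.05 to 14.23, were all below the 3 Creole arrays, at 14.32 to 14.38. The calls of named genes with an adjusted p of 0.0497, that is SLA-DQA1, HIGD1B, SLC35F5, HACL1, NOL11 and POLR1D, were each lost in 18 to 23 of the 26 fits without 1 array. SLC38A2, a sodium-coupled transporter of small neutral amino acids, was the named gene next in line among those higher in F1. It did not pass, with a difference of 0.54 ± 0.11 and an adjusted p of 0.0664. Its other 7 probes were also higher in F1, by 0.10 to 0.45.

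The largest of the 32 differences was 3.13 ± 0.54, on an unnamed probe designed from an expressed sequence tag. It read 13.04, 13.54, 13.85, 13.41 and 14.21 in F1, and 10.50, 10.43, 10.93, 10.11 and 10.42 in Creole, an 8.77-fold difference (adjusted p = 0.017, limma). At TN the F1 arrays split, with 3 between 13.49 and 13.96 and F1 replicate 3 at 9.87, while the Creole arrays were between 9.61 and 11.23. The probe A_72_P386263, described in the files as like a VWFA and cache domain protein, was higher in F1 by 1.51 ± 0.28 (adjusted p = 0.0367) and by 1.01 at TN. The probe A_72_P352383 differed by only 0.75 ± 0.09 but had the second smallest adjusted p (0.000953), since its SD was 0.09 in F1 and 0.13 in Creole. It also passed at TN, with a difference of 1.02 (adjusted p = 0.000227).

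The 32 probes were chosen on the heat arrays, and the TN arrays of both breeds entered only through the normalization, the filter on dim probes and the estimate of the spread. With a filter on 5 of the 10 arrays compared, 36 probes passed. By the study's methods, littermates of a breed were divided between both temperatures, so the TN pigs are other animals but not an independent sample of the breeds. At TN, 27 of the 32 differences had the same direction as under heat, beside 52.3% of all probes tested. An unadjusted p below 0.05 in that direction was found for 18 of the 32 at TN, beside 6.46% of all probes with such a p in either direction. At TN, 4 probes passed the threshold (0.00895% of those tested), namely A_72_P097651, A_72_P352383, C1D and C1GALT1, and all 4 were among the 32. C1GALT1 entered the tests through the breed in which it is bright, so its place in these counts is a description. The counts are of probes and not of genes, since several probes read the same stretch of SLA-3 or GSTA4. Across all probes the differences under heat and at TN had a correlation of 0.24, which is across probes of 2 sets of arrays and carries no test. The probes with opposite directions were 2 of SLA-3, AKTIP, NOL11 and SLC35F5.

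**Figure D3:**
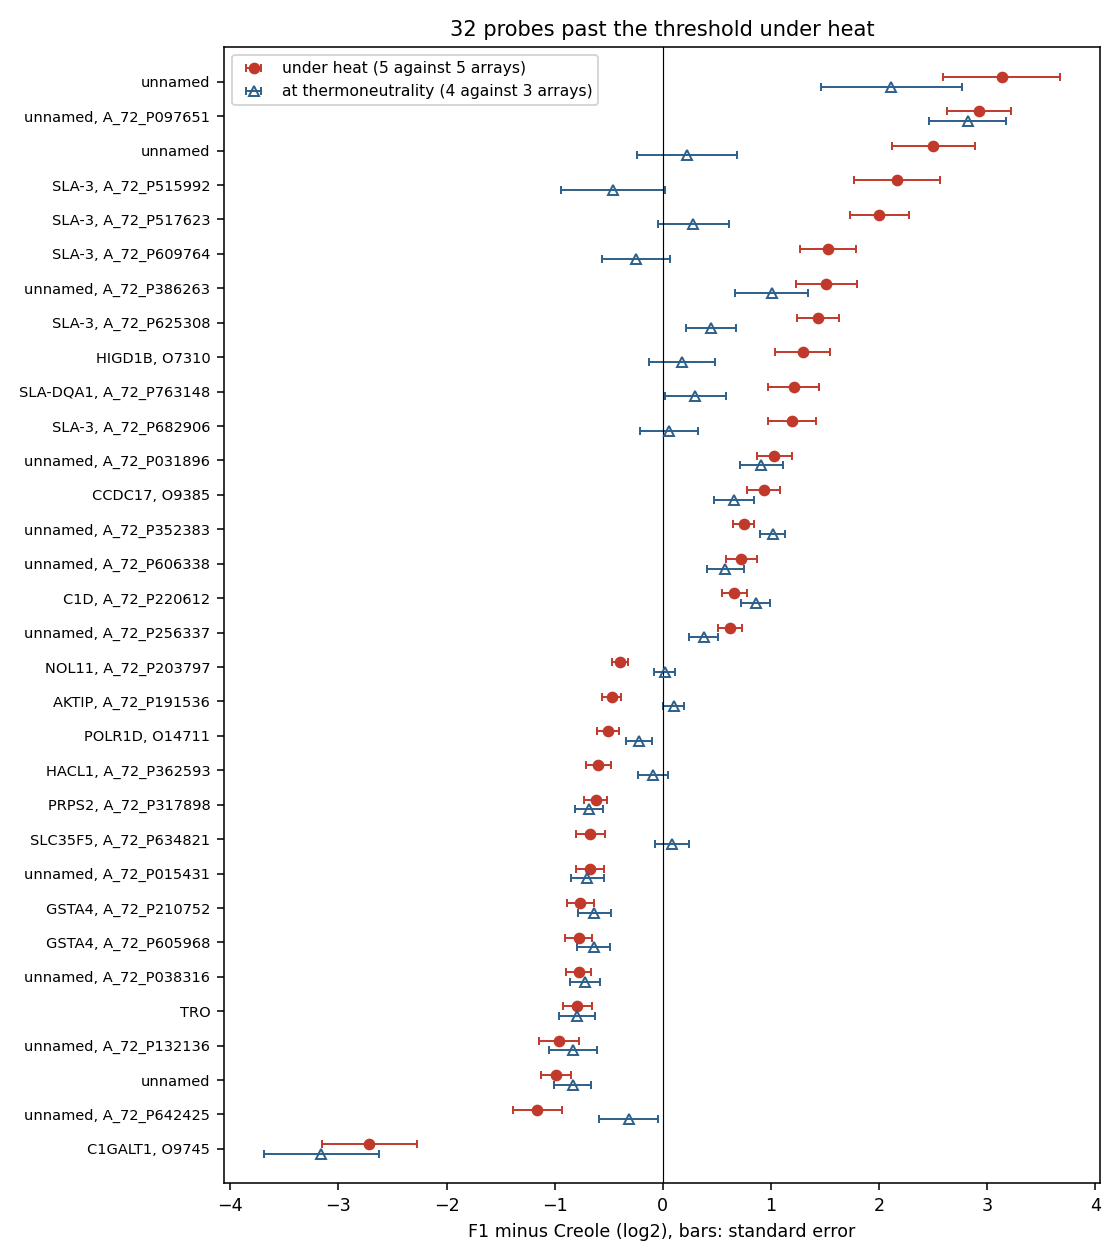
Difference F1 minus Creole (log2, with its standard error) of the 32 probes past the threshold under heat, with the heat value (red circles, 5 against 5 arrays) above the value at thermoneutrality (blue triangles, 4 against 3 arrays). Both values lie close together for C1GALT1, GSTA4, TRO, PRPS2, C1D and CCDC17, while those of the SLA-3 probes, HIGD1B, NOL11, AKTIP and SLC35F5 are apart, with TN values between -0.46 and 0.45.

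The test of the difference between heat and TN gave no probe past the threshold (limma, smallest adjusted p = 0.789), although 2380 probes, or 5.32%, had an unadjusted p below 0.05. TOMM20 and EAPP were among the named genes with the smallest p. EAPP, a nuclear phosphoprotein that binds E2F factors, was lower in F1 by 0.82 under heat and higher by 0.72 at TN on A_72_P208897. Of its 7 probes 6 were lower in F1 under heat. At TN the other 6 probes of EAPP went both ways, with differences from -0.32 to 0.19. TOMM20, a receptor of the outer mitochondrial membrane, differed by -0.15 and 0.43 on a dim probe, and the heat value turned sign with another scaling.

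The position of F1 between its parental breeds was examined as F1 minus the mean of the Creole and LW arrays under heat. No probe passed (limma, smallest adjusted p = 0.218), and 3158 of the 44703 probes tested had an unadjusted p below 0.05. The named genes with the smallest p were NOL11, HIGD1B and ATP6. For HIGD1B the F1 mean of 11.96 was above both Creole (10.67) and LW (11.01), by 1.12 relative to their mean (unadjusted p = 3.04e-05). For NOL11 the F1 mean of 9.98 was below both Creole (10.38) and LW (10.34), by 0.38 relative to their mean. ATP6, a mitochondrially encoded subunit of the ATP synthase, was 0.31 above Creole on A_72_P722713, and all 9 of its probes were higher in F1, by 0.01 to 0.31. LW minus Creole and F1 minus LW under heat share arrays with this comparison. Of the 44703 probes tested, they gave 2528 and 5 past the threshold. C1D under heat was at 8.73 in Creole pigs, at 9.39 in F1 pigs and at 9.84 in LW pigs. GSTA4 (A_72_P210752) was at 10.18, 9.42 and 9.51 in the same order.

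The functions for which SCAT is known were described with 26 gene lists, each gene standing by its probe with the highest mean level. GSTA4 was the only list gene past the threshold by that probe, by which 10 of all 10481 genes passed. Over all these genes the median difference was -0.0020 and 9.02% had an unadjusted p below 0.05. Fatty acid synthesis and desaturation, which turns glucose into fatty acids, had 11 of 18 genes lower in F1, with a median of -0.06 under heat and -0.26 at TN. Triglyceride synthesis and lipid droplets had 12 of 16 genes lower, with a median of -0.06. Lipolysis and fatty acid release was even, with 6 of 12 genes higher. Among 21 genes of fatty acid oxidation 9 were higher and 12 lower. Of these, HADH, the mitochondrial hydroxyacyl-CoA dehydrogenase, differed by -0.39 ± 0.09 without overlap of the arrays (adjusted p = 0.123, limma).

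Among the genes that answer heat and misfolded proteins the median was -0.04 over 13 HSP70 and HSP110 chaperones, 0.00 over 29 HSP40 co-chaperones and -0.05 over 20 HSP90, small heat shock proteins and heat shock factors. None passed. HSPA14, a ribosome-bound HSP70, read from 8.26 to 8.33 in F1 and from 8.40 to 8.72 in Creole, a difference of -0.29 ± 0.10 (adjusted p = 0.371, limma). HSP90AB1, the constitutive cytosolic HSP90, differed by -0.18 ± 0.06 (adjusted p = 0.393). In the unfolded protein response 14 of 16 genes were lower in F1, with a median of -0.07.

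Among the lists of signalling and defence, the interferon response had 24 of 26 genes higher in F1, with a median of 0.18 under heat and 0.39 at TN. The mean score of the list per array was -0.23, -0.02, -0.17, 0.44 and 0.64 in F1 and 0.05, 0.08, -0.60, 0.08 and -0.25 in Creole under heat. The groups overlapped, and 3 of the 5 F1 arrays scored below 3 of the 5 Creole arrays. XAF1, an interferon-induced partner of apoptosis inhibitors, read 10.61, 9.87, 9.54, 10.53 and 10.62 in F1, and 8.69, 8.73, 9.75, 8.85 and 8.10 in Creole. Creole replicate 3 lay within the F1 range, and the difference of 1.41 ± 0.37 did not pass (adjusted p = 0.181, limma). Its other probe differed by 0.54. TLR4, the receptor for bacterial lipopolysaccharide, differed by -0.80 ± 0.24 (adjusted p = 0.276). IGFBP2, a carrier of insulin-like growth factors, differed by 0.37 ± 0.12 with no overlap (adjusted p = 0.315). AKR1E2, an aldo-keto reductase, was at 7.34 to 7.63 in Creole, while the F1 arrays split into 7.46 and 7.58 on 2 arrays and 9.01 to 9.61 on 3. Its difference of 1.09 ± 0.38 did not pass (adjusted p = 0.376). The antioxidant and xenobiotic enzymes, which hold GSTA4, had 13 of 28 genes higher in F1 and a median of -0.01, which was 0.02 with the 75th percentile scaling. The remaining lists of functions had medians between -0.11 for the circadian clock and 0.13 for glucocorticoid and steroid handling. With the 75th percentile scaling the circadian median was -0.05, that of fatty acid synthesis was -0.02 and that of the adipokines moved from 0.05 to 0.15.

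**Figure D4:**
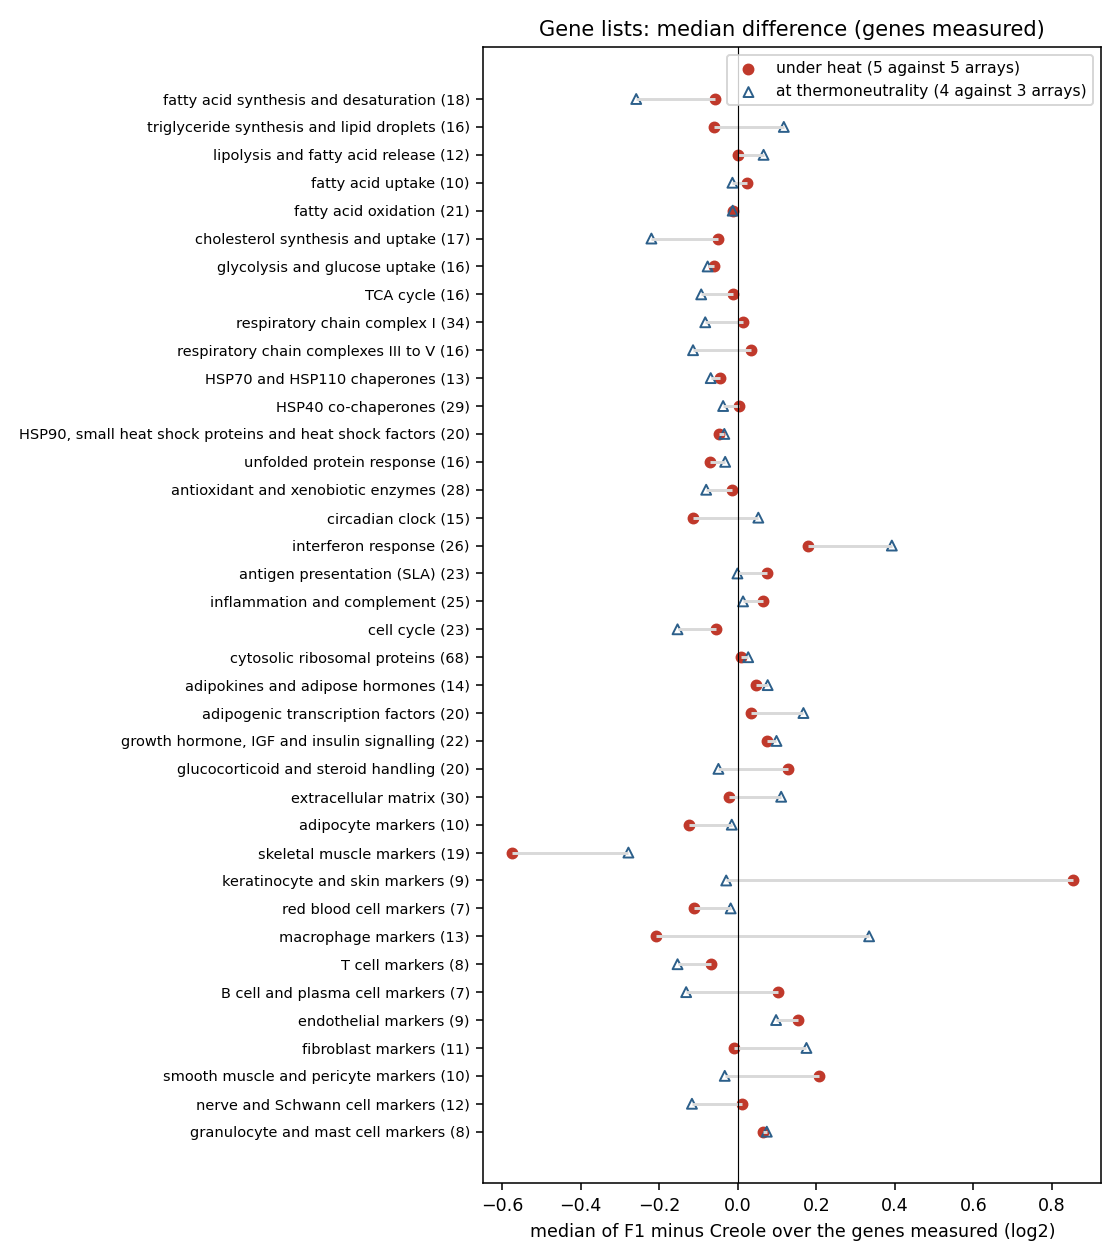
Median over the measured genes of the difference F1 minus Creole (log2) for the 38 gene lists, under heat (red circles) and at thermoneutrality (blue triangles), with the number of genes measured in parentheses. The keratinocyte list at 0.85 and the skeletal muscle list at -0.58 lie farthest from 0 under heat, and of the lists of functions the interferon response lies highest, at 0.18.

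The 12 lists of cell type markers were described in the same way, with no test of cell content. The 9 measured keratinocyte and skin genes were all higher in F1, with a median of 0.85 under heat and -0.03 at TN. With each array scaled to its 75th percentile the median under heat was 1.503. The score per array ranged from -0.44 to 2.42 in F1 and from -0.91 to 0.97 in Creole, so the groups overlapped. The KRT5 probe with the highest level differed by 3.35 ± 1.55 (adjusted p = 0.556, limma) and was well above background on 3 of the 5 Creole arrays, so this value rests in part on background signals. The other KRT5 probe differed by 0.18. Of 19 skeletal muscle genes 18 were lower in F1, with a median of -0.58, and the scores ranged from -0.85 to 0.66 in F1 and from -1.19 to 2.53 in Creole. All 10 adipocyte genes were lower in F1, with a median of -0.12 and scores of -0.18 to 0.08 in F1 and of 0.06 to 0.32 in Creole. FABP4 was among them, by 0.12, and was higher in F1 by 0.08 when each array was scaled to its 75th percentile, where the median of the list was -0.05.

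Among the vascular cells, the smooth muscle genes TAGLN, ACTA2, CNN1 and MYH11, which form and regulate the contractile apparatus, were higher in F1 by 0.67, 0.48, 0.65 and 0.46. TAGLN did not overlap between groups, with 11.69 to 12.04 in F1 and 10.89 to 11.50 in Creole, and had an adjusted p of 0.122 (limma). At TN it differed by -0.0033. All 9 endothelial genes were higher in F1, with a median of 0.15 and scores of -0.26 to 0.22 in F1 and of -0.39 to -0.04 in Creole. KDR, a receptor of vascular endothelial growth factor, differed by 0.53 under heat and by 0.91 at TN (unadjusted p = 0.018 and 0.00145) on its probe with the highest level. Its other probes differed by 0.05 and 0.10 under heat. Of 13 macrophage genes 12 were lower in F1 under heat, with a median of -0.21, whereas the median at TN was 0.33. The lists of red blood cells, T cells, B cells, fibroblasts, nerve and granulocytes had medians between -0.11 and 0.10. No gene of the 12 marker lists passed the threshold, and their part in the 32 probes was not tested.

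**Figure D5:**
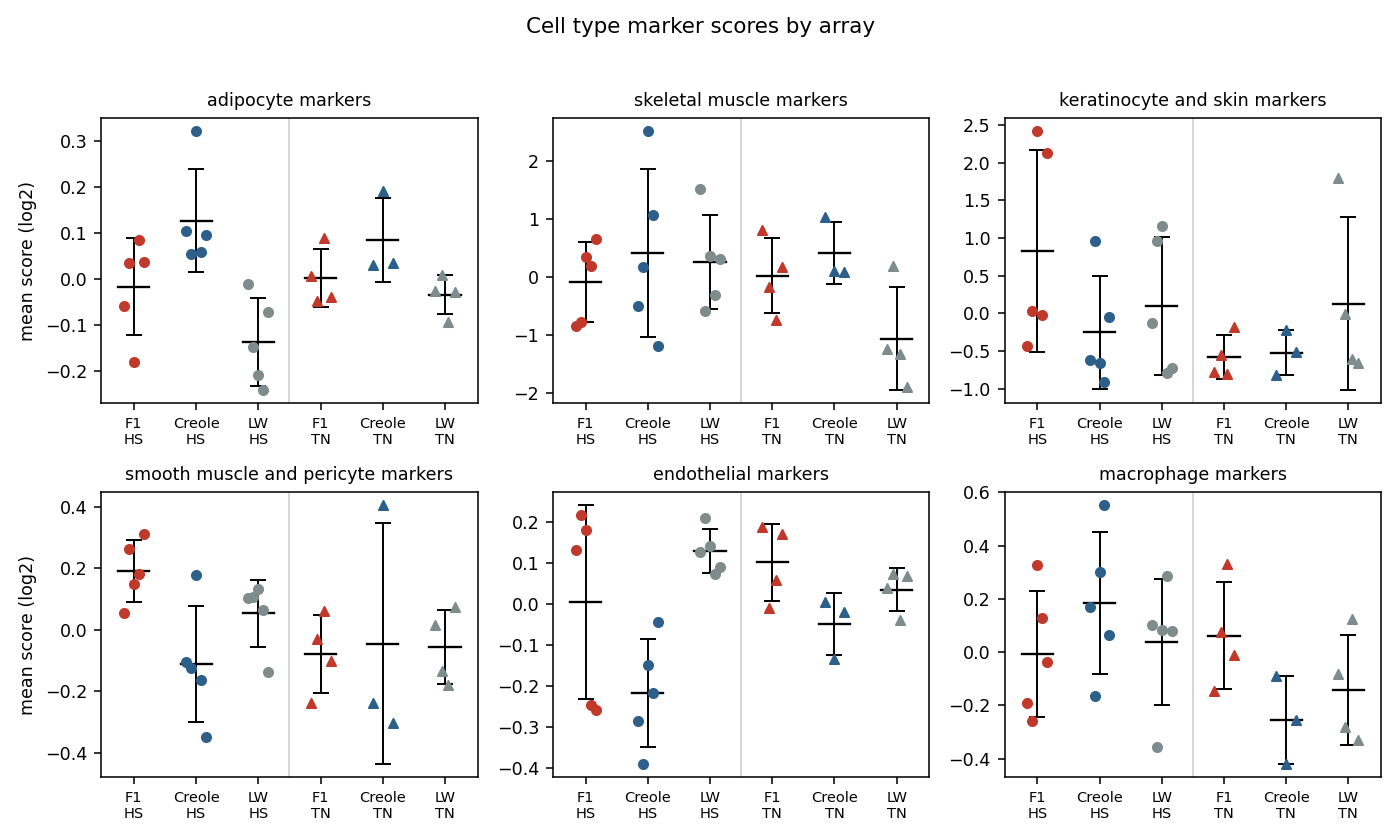
Mean marker score per array (log2, relative to the mean of each gene over all 26 arrays) for 6 cell type lists, by breed (F1, Creole, LW) and temperature (HS circles, TN triangles), where lines and bars are the mean ± SD of a group. Creole HS replicate 3 is the highest for skeletal muscle (2.53) and F1 HS replicates 3 and 5 are the highest of the heat arrays compared for keratinocytes (2.42 and 2.13).

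The arrays were spread over 5 slides, of which 3 held both F1 and Creole pigs under heat. The values within these slides are a description, since the genes were chosen on the same arrays and most of the signs follow from groups that do not overlap. The SLA-3 probe A_72_P515992 differed by 2.14, 1.47 and 3.08 on the 3 slides, HIGD1B by 0.95, 1.37 and 1.43, and GSTA4 (A_72_P605968) by -0.85, -0.45 and -1.07. A model with a fixed effect of slide gave 24 probes past the threshold, 20 of them among the 32.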

How the data were processed

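RNA of SCAT from 26 pigs was hybridised to 26 one-colour porcine arrays of 60306 spots. The scanner files deposited by the authors, written by Agilent Feature Extraction 10.10.1.1 per the labels, hold unnormalized intensity values (median, mean, local background, processed) and flags; the deposited series matrix holds log2 quantile-normalized values of 44104 probes and served as an alternative. The matrix and the scanner files had the same scale. With no background correction, median intensities were taken as log2 and then quantile-normalized in R 4.3.3 with limma 3.58.1. Spots flagged as non-uniform outliers were set to missing before the normalization. Each probe entered by the mean of its spots if it was well above background on 8 or more of the 26 arrays. Models of 6 group means over all arrays (lmFit, eBayes with trend) gave the contrasts, with Benjamini-Hochberg adjustment over 44703 probes and a threshold of 0.05. A signal measures a probe, and signals of different probes are not compared. The number of arrays limits the precision. Pen, slaughter day and parents, which the authors modelled, are not in the labels and were left out, as was litter, which the labels do not give either. By the methods no F1 pig shared a pen with a Creole pig, so pen and breed cannot be told apart in this comparison.

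Symbols came from accessions and symbols in the files, matched to RefSeq gene tables of Sscrofa11.1, and 22931 tested probes had one. No genome was used, so probes were not realigned and positions are not given. Named genes were, in each direction, up to 12 past the threshold with a symbol, 1 probe per gene by largest difference, well above background on every array of 1 group, filled to 6 by the smallest p, and the 3 with the smallest p for the 2 other tests; further genes of the lists that did not pass were chosen after their values were seen. Of the genes so chosen, 1 is not reported here. The members and lists were chosen with earlier results of these data known. The fit was tested on simulated data. Alternatives are given in the closing section.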

Additional observations from a re-analysis of the deposited data

Results flagged for a closer look

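In groups of 5 arrays, an array stood apart when its gap to the nearest other array exceeded 0.71 of the range of its group. This was examined in 74 groups of the probes past the threshold and the named genes, and found in 9, where chance alone gives about 5%. Creole replicate 4 was high on 2 SLA-3 probes, at 16.33 on A_72_P515992, where the next Creole array was at 14.31, and at 16.17 on A_72_P609764, where it was at 14.73. F1 replicate 1 was the low array of its group on the same 2 probes, at 16.09 and 15.97, and on an unnamed probe, at 11.73. C1GALT1 held both an F1 array within the Creole range, F1 replicate 3 at 8.74 against 5.61 for the next, and a high Creole array, Creole replicate 4 at 9.72. F1 replicate 3 was also high for SLC35F5, at 7.99, and F1 replicate 5 for TRO, at 6.32.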

How the results depend on the processing

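The 32 probes past the threshold under heat kept their direction in all 431 recomputed values under the other scalings, filters, slide and variance settings, the 3 subsets of arrays below and the means over all probes of a gene, and lost the call in 107 of them. The count was 29 with the 75th percentile of the processed signal, 31 with normexp, 22 without a filter on dim probes and 26 with array weights. It moved to 9 with only the 10 arrays compared, to 20 without the 3 arrays richest in keratinocyte signal and to 168 without the 2 richest in muscle signal, both added after the values were seen. Without single arrays it lay between 17 and 47. It fell by more than 1.5 times without F1 HS replicate 1 (18) or 2 (17), Creole HS replicate 1 (17), 2 (17) or 5 (18), F1 TN replicate 1 (21) and LW TN replicate 3 (20). Of the 32, 11 passed in every such fit, and the call was lost in 245 of 832 values, with no change of direction. The count of 4 at TN was 7 with normexp, 9 with the slide as a fixed block and 12 with array weights, and from 2 to 11 without single arrays. It was 2 without F1 TN replicate 1, F1 TN replicate 2 or Creole TN replicate 3, 8 without F1 HS replicate 2 or Creole HS replicate 5, and 11 without F1 TN replicate 3. The interaction count of 0 was 10 without the 2 arrays rich in muscle signal and from 0 to 4 without single arrays, with 4 without Creole HS replicate 4 and 1 without Creole TN replicate 1. The count of 0 against the mid-parent was 4 without the arrays rich in keratinocyte signal, 27 without those rich in muscle signal and from 0 to 8 without single arrays, with 8 without Creole HS replicate 4, 7 without F1 HS replicate 3, 3 without F1 TN replicate 3 and 2 without LW HS replicate 5. Among single genes, the directions that turned were those of TOMM20 (O13954, 0.058) and FABP4 (0.077) with the 75th percentile and of CKM (0.30) without the arrays rich in muscle signal, none of which had passed. The medians of the antioxidant, glycolysis, extracellular matrix and fibroblast lists turned with the 75th percentile, and those of the antioxidant, TCA cycle and nerve lists with normexp. The causes were not tested. The correlation within slides was 0.0365. No paired analysis was possible because the labels give no replicate numbers, and those used here follow the order of deposit and only name the arrays. Dim probes such as C1GALT1 and TRO lie near the background, where differences are understated.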
